A study of Mus musculus with 9 samples.

Results

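Forkhead genes encode transcription factors that share a winged-helix DNA-binding domain, the forkhead box. The members described here were the protein-coding genes of the mm10 GENCODE annotation whose symbol is Fox, a letter and a number, which gave 44 of 21938 protein-coding genes. Each member was given a window made of the gene body and 50 kb on either side. A HOX13 peak was assigned to a member when one of its summits fell in that window.

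The peaks came from CUT&RUN, in which an antibody tethers micrococcal nuclease to a DNA-binding protein so that the DNA around it is released and sequenced. HOXA13 and HOXD13, together called HOX13, are homeodomain factors required to form the digits, and they were profiled in distal forelimb cells of mouse embryos of the B6CBAF1 background. The 9 libraries were 3 wild-type (wt) HOXA13 and 3 wt HOXD13 libraries at E12.5, and from the II1 T-DOM 542 line (542) 2 HOXA13 libraries of the same stage and 1 of HOXD13 with E11.5 in its label. Embryos of this line were homozygous for a copy of the HoxD limb enhancer II1, placed with a promoter and the lacZ reporter in the T-DOM domain on chromosome 2. The 542 line descends from 1 founder, and each library pooled tissue from several embryos. No library of an unrelated antibody entered peak calling, so a called peak is a rise over the local background of the same library. Peak lists hold no expression values, so the labelled tissue could not be checked against marker transcripts. The wt libraries were mapped on mm10 and the 542 libraries on the mutant genome, in which chromosome 2 is shifted past the insertion. Foxa2 and Foxs1 lie past it, and only the 6 wt lists were used for both.

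The lists held 23939 to 117719 intervals. Depth, inferred from the background of each list, was 36.9 to 65.5 M read ends, a read end being each mate of a read pair. The shallowest lists were those of wt HOXD13 replicates 1 and 3. Overlapping intervals of all lists were joined into sites. Both wt replicates 3 had the fewest intervals of a fold enrichment of at least 5 of their antibody, 7282 of 57367 with HOXA13 and 4794 of 37589 with HOXD13. At 13953 sites called in all 6 wt lists the deviations of these libraries from the means of their antibodies correlated at 0.685 across sites, and those of HOXA13 replicate 1 and HOXD13 replicate 2 at 0.631. Sites are not independent replicates, and deviations from a mean of 3 libraries are tied to each other. Results that rest on them are given with and without them. The replicates are separate pools, and no label ties a HOXA13 pool to a HOXD13 pool. The study does list a longer read length for both wt replicates 3 than for the other wt libraries. The part of read length was not tested.

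Forkhead factors act in many tissues. FOXC1, FOXC2, FOXF1, FOXF2, FOXD1 and FOXL1 are factors of mesenchyme, and FOXC1 and FOXC2 take part in forming cartilage and bone. FOXP1, FOXP2 and FOXP4 form dimers through a leucine zipper, repress transcription and are expressed in the nervous system, lung and skeleton. FOXO factors are moved out of the nucleus when insulin and growth factor signalling activates AKT. FOXA factors open chromatin in endoderm, and FOXB1 and FOXD3 are known from the nervous system and neural crest.

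The forkhead sites with the strongest signal are shown first as sequence. They were taken from the sites called in all 9 lists, ordered by the median over the wt lists of the percentile of -log10 p within the list, with at most 2 sites per gene. Each line gives 100 bases of the forward strand of mm10 around the summit of the wt list in which the site ranked highest. Capitals mark letters of the HOX13 consensus. The consensus was searched on both strands as CCNATAAA, CTNATAAA, CCNGTAAA and CTNGTAAA, any of which may overlap another.

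Foxo3 upstream, chr10:42277932-42278031: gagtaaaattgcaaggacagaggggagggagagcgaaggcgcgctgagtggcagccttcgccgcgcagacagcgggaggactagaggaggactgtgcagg
Foxp1 intron, chr6:99484848-99484947: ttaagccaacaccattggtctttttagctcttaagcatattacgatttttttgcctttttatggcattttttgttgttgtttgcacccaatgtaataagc
Foxn3 intron, chr12:99392108-99392207: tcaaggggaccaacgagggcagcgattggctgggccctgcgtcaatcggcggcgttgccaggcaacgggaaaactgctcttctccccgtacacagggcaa
Foxj2 upstream, chr6:122810950-122811049: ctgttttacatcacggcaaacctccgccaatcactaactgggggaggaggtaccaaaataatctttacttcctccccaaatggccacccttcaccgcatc
Foxk1 upstream, chr5:142368018-142368117: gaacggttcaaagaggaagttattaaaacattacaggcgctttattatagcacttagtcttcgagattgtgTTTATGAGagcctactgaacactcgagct
Foxf2 and Foxq1, chr13:31604124-31604223: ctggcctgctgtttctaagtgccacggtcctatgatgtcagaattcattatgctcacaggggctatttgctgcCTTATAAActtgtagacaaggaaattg

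Only the Foxk1 and Foxf2 windows among these 6 hold the consensus, once each. The Foxo3 line is centred on the summit of wt HOXA13 replicate 3. The main summits of all other lists lay outside its bases, as at 42277908 in wt HOXA13 replicate 1 and 42278101 in wt HOXD13 replicate 3. The site nearest to Foxo3, a FOXO factor linked to stress resistance and longevity, lay 1.23 kb upstream of the gene start outside annotated genes (chr10:42277326-42278534). It had the highest median percentile of all (99.4, and 97.2 or more in each of the 6 wt lists). The Foxp1 site lay 37.8 kb into the gene in an intron (chr6:99484165-99486098), and the Foxn3 site 171 kb into the gene in an intron (chr12:99390995-99392764). FOXN3 is a repressor linked to cell cycle checkpoints. The site of Foxj2 lay 8.91 kb upstream (chr6:122810505-122812046) and that of Foxk1, whose protein takes part in muscle progenitor growth and metabolism, 33.4 kb upstream (chr5:142367247-142368710), both between genes. The last of them lay 21.6 kb upstream of Foxf2 in an intron of the noncoding gene 1700018A04Rik (chr13:31603725-31604562) and fell in the window of Foxq1 as well.

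Signal is given as the pileup, the number of extended read ends that cover the library's own summit at the site, per M read ends of the library. At the Foxo3 upstream site it was 7.37, 4.25 and 6.37 in wt HOXA13 replicates 1, 2 and 3 and 2.1, 6.5 and 5.42 in the wt HOXD13 replicates. It was 6.76 and 6.06 in the 542 HOXA13 libraries and 6.61 in the 542 HOXD13 library. The wt HOXD13 replicate 1 library was the lowest and the antibodies overlapped. At the Foxp1 intron site the values were 8.9, 5.63 and 3.07 with wt HOXA13 and 1.63, 3.08 and 2.79 with wt HOXD13. They were 8.92 and 7.69 with 542 HOXA13 and 3.88 with 542 HOXD13. The wt HOXA13 replicate 3 value lay just under the highest wt HOXD13 value, and the other wt HOXA13 values lay above all of them. At the Foxn3 intron site the values were 8.8, 4.74 and 2.42 with wt HOXA13 and 2.49, 6.07 and 2.38 with wt HOXD13, so that both ranges overlapped and both replicates 3 were the lowest of their antibody. The Foxf2 and Foxq1 site gave 4.13, 2.87 and 1.95 with wt HOXA13, against 0.934, 2.19 and 1.71 with wt HOXD13. It gave 4.62 and 4.67 with 542 HOXA13 and 1.25 with 542 HOXD13. The wt HOXD13 replicate 1 pileup at the Foxo3 upstream site, 81 read ends, had an exact Poisson 95% interval of 64.3 to 101, which covers counting error only. At the Foxf2 and Foxq1 site the same library had 36 read ends, with an interval of 25.2 to 49.8, or 0.654 to 1.29 per M read ends.

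**Figure D1:**
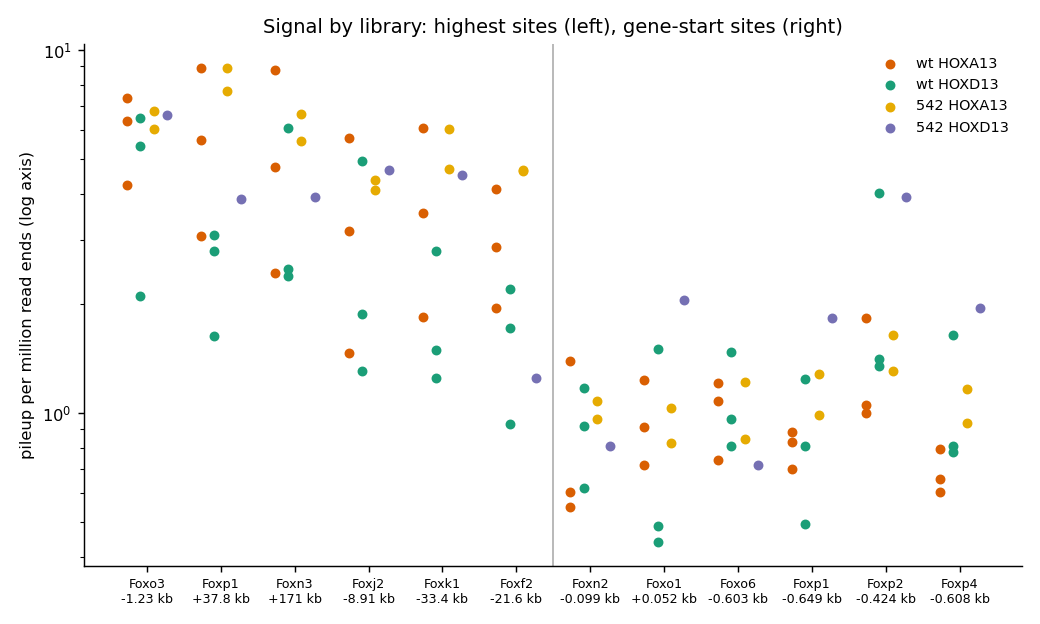
Pileup per M read ends (log axis) by library at the 6 highest forkhead sites called in all 9 lists (left of the line) and at the 6 forkhead sites within 1 kb of a gene start that were called in all 6 wt lists (right). Each point is 1 library and numbers under the gene names give the distance to the gene start in kb. The sites on the left were picked for their rank, and the gene-start sites lie mostly lower, between 0.441 and 4.03 in the wt libraries. Libraries of 1 group differ several-fold.

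Counted over all lists, the forkhead windows held 841 sites in 6.37 Mb. Of these, 422 (50.2%) were called in a single list, against 49.8% of the 150832 sites near all protein-coding genes. At the other end, 50 forkhead sites (5.95%, against 6.56%) were called in all 9 lists. The 542 HOXD13 list alone accounted for 144 of the single-list sites, the most of any list, and wt HOXD13 replicate 1 for 1. Among the 586 sites called in at least 1 wt list, 295 (50.3%) were in 1 wt list only and 55 were in all 6. The windows of the members thus held 8.63 sites called in all 6 wt lists per Mb, beside 6.62 per Mb in the joined windows of all protein-coding genes. These densities are a description of unequal windows and carry no test.

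The sites called in all 6 wt lists were unevenly spread over the members. A total of 28 of 44 members (63.6%) had at least 1, where 56.8% of all protein-coding genes did. The median member had 0.667 such sites per 100 kb and the median protein-coding gene 0.645. For sites in any wt list the medians were 10.3 and 7.03 per 100 kb, given as a description with no test. Foxp1 (9), Foxn3 (7) and Foxp2 (4) carried the most, together 20 of the 55 (36.4%) in 28.4% of the joined window length. Foxl1 also had 4, and Foxc1, Foxf2 and Foxq1 had 3 each. Foxc2 followed with 2. Across the 44 members the number of sites in any wt list went with window length (Spearman's rho 0.445, a description over genes whose windows partly overlap).

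**Figure D2:**
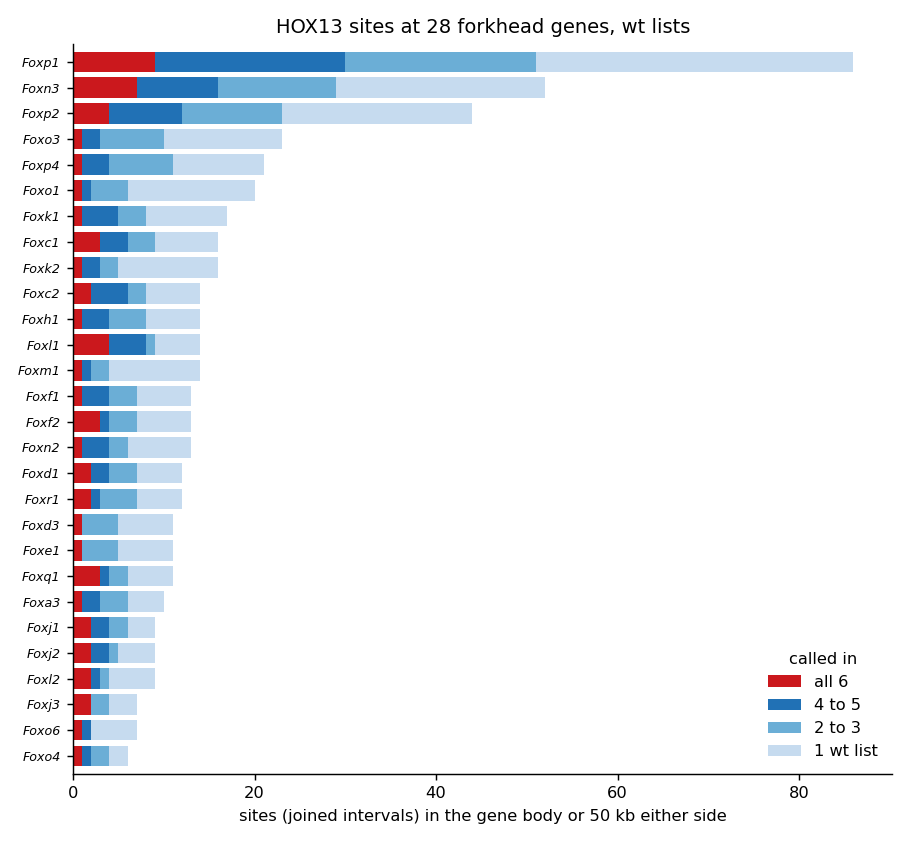
Number of joined HOX13 sites in the window of each of the 28 forkhead genes with a site called in all 6 wt lists (x axis), stacked by the number of wt lists that called the site. Foxp1, Foxn3 and Foxp2 have the longest bars (86, 52 and 44 sites) and also the most sites called in all 6 wt lists (9, 7 and 4, the last shared by Foxl1); the 16 genes without such a site are not drawn.

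Among the FOXP genes, Foxp1 stood first by number. Its window of 697 kb held 86 sites in any wt list, and intervals numbered 73, 49 and 41 in wt HOXA13 replicates 1, 2 and 3 and 20, 51 and 22 in the wt HOXD13 replicates. The 542 HOXA13 lists had 71 and 57 and the 542 HOXD13 list 80. The order of the lists at Foxp1 was close to the order of their sizes. Of its 9 sites called in all 6 wt lists, 8 lay in introns of Foxp1, from 37.8 kb to 589 kb past the gene start, and 1 lay 0.649 kb before it. Per 100 kb this was 1.29, at percentile 76.6 of all protein-coding genes, so the count of Foxp1 was more unusual than its density. Foxp2, known for its part in speech and motor circuits, had 4 such sites in 641 kb (0.624 per 100 kb, percentile 49.3). They lay at the gene start and 229 kb, 466 kb and 507 kb into the gene. Foxp4 had 1, at its start, and Foxp3, the factor of regulatory T cells, none of its 3 wt sites in all 6 lists.

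The mesenchymal genes (Foxc1, Foxc2, Foxd1, Foxd2, Foxf1, Foxf2, Foxl1 and Foxs1) had the highest median density of the role groups. Their 8 members had a median of 1.92 sites called in all 6 wt lists per 100 kb, and 6 of the 8 had at least 1. A site in overlapping windows counts for each gene, so this median does not rest on 8 separate loci. Foxl1 reached 3.89 per 100 kb, at percentile 99.0 of all protein-coding genes, the highest of the family. It shares its neighbourhood on chromosome 8 with Foxf1 and Foxc2, so the windows of the 3 genes overlap. Together they held 4 distinct sites called in all 6 wt lists within 146 kb. The first lay 2.79 kb upstream of Foxc2 (chr8:121113067-121114631), in all 3 windows. The second lay 20.9 kb past the Foxl1 start and in the window of Foxc2, and the other 2 lay 47.2 kb and 52.6 kb past the Foxl1 start, outside the windows of the other genes. All 4 fell in introns of Gm20388, an annotated gene that spans the interval. A second cluster on chromosome 13 held Foxq1, Foxf2 and Foxc1, with 6 distinct sites in 281 kb. The 3 sites counted for Foxf2 (2.84 per 100 kb) and for Foxq1 (2.86 per 100 kb) were the same 3, between the genes. Foxq1 was classed as tissue-restricted, so these sites enter both role groups. Foxc1 had 3 of its own (2.83 per 100 kb, percentile 95.8), 46.0 kb and 5.69 kb upstream and 47.1 kb downstream of its start. Foxd1, a factor of stromal progenitors, had 2, and Foxd2 and Foxs1 had none.

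**Figure D3:**
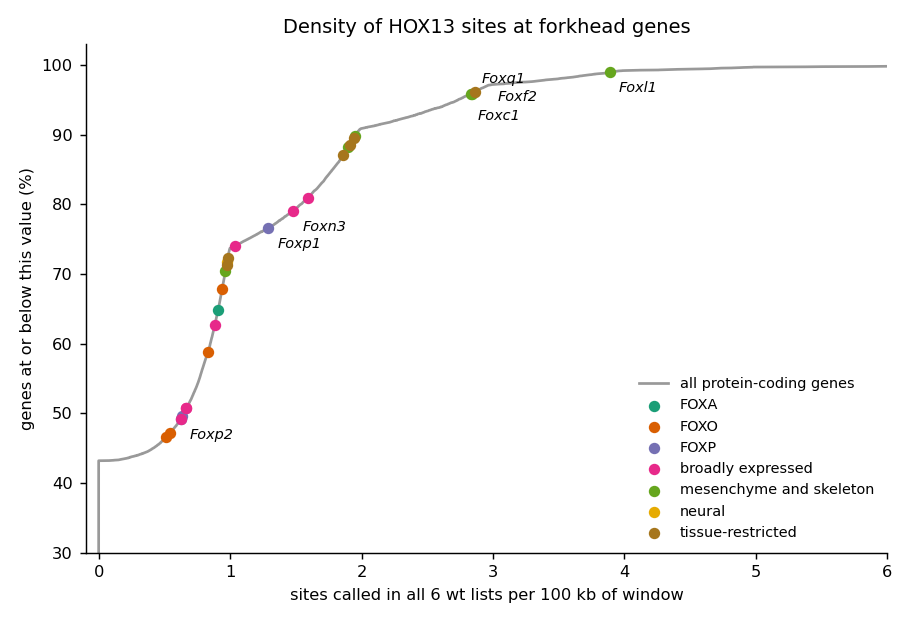
Cumulative share of all protein-coding genes (grey line, y axis in %) by the number of sites called in all 6 wt lists per 100 kb of window (x axis), with the 28 forkhead genes that have such a site placed on it and coloured by role. Foxl1 lies at 3.89, and Foxq1, Foxf2 and Foxc1 lie together near 2.8, while Foxp2 lies near the middle of the genome; the 16 genes without such a site are not drawn.

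Both clusters held intervals in every list. At Foxl1 there were 9, 7 and 9 in wt HOXA13 replicates 1, 2 and 3, 4, 13 and 7 in the wt HOXD13 replicates, 13 and 11 in the 542 HOXA13 libraries and 14 in the 542 HOXD13 library. At Foxc1 they were 12, 7 and 7 with wt HOXA13 and 5, 11 and 4 with wt HOXD13. In the 542 lists they were 12 and 11 with HOXA13 and 16 with HOXD13. Both genes had their lowest wt counts among the wt HOXD13 lists, and the ranges of the antibodies overlapped.

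All 4 FOXO genes had exactly 1 site called in all 6 wt lists. It lay 0.052 kb past the start of Foxo1 in its untranslated region, 0.603 kb upstream of Foxo6, 1.23 kb upstream of Foxo3 and 6.56 kb past the start of Foxo4, beyond the end of that short gene. The 7 broadly expressed members (Foxk1, Foxk2, Foxm1, Foxn2, Foxn3, Foxj2 and Foxj3) each had at least 1 and together 15. FOXM1 drives entry into mitosis, and its site lay 61.7 kb past the gene start in an intron of Itfg2. Among other families of developmental transcription factors, 11 of 19 Sox genes (57.9%) and 3 of 6 Irx genes (50.0%) had one, with medians of 0.948 and 0.421 per 100 kb.

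Members with a site called in all 6 wt lists made up 63.6%, beside 56.8% of all protein-coding genes. The members without one came from several role groups. There were 16, among them Foxa1 and Foxa2 of endoderm, Foxb1, Foxb2 and Foxn4 of the nervous system, Foxn1 of thymus and hair, Foxe3 of the lens, Foxi1, Foxi2 and Foxi3, Foxd2, Foxd4, Foxp3, Foxr2 and Foxs1. Their windows made up 25.7% of the joined length and held 109 of the 586 sites called in any wt list (18.6%). Foxr2 had the fewest, 2, with no more than 2 intervals in any list. No member was without an interval in every list. Of the FOXA and neural genes only Foxa3 and Foxd3 had a site called in all 6 wt lists, 1 each, 32.4 kb past the Foxa3 start and 31.4 kb upstream of Foxd3. Conversely, of the 13 members classed as tissue-restricted, 6 had a site called in all 6 wt lists. Foxq1 had 3, Foxl2 of the ovary, Foxj1 of ciliated cells and Foxr1 had 2 each, and Foxh1 and Foxe1 had 1 each. The grouping by role thus does not sort every gene. For Foxr1, also with 2, both sites lay in neighbouring genes, in the untranslated region shared by Rps25 and Trappc4 and in an exon of C030014I23Rik.

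Most of the 55 sites were away from gene starts. A total of 30 (54.5%) fell in introns and 18 (32.7%) between genes, 21 (38.2%) were inside a forkhead gene, and the median distance to the nearest forkhead start was 33.4 kb. The sites were 599 to 2160 bp wide, with a median of 1200 bp. Main summits of the 6 wt lists were spread over a median of 286 bp within a site, so a shared site does not mean a shared summit. In rank the forkhead sites were ordinary, since 17 of the 55 (30.9%) had a median percentile of at least 90, as did 29.8% of the 11041 sites near protein-coding genes called in all 6 wt lists.

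A summit within 1 kb of the gene start was called in all 6 wt lists at 6 members (13.6%), where 18.2% of all protein-coding genes had one. These were Foxp1, Foxp2, Foxp4, Foxo1, Foxo6 and Foxn2, and each of them was called in the 3 lists of the 542 line too. Foxp1's annotated start belongs to a transcript outside the basic GENCODE set, and Foxp1 is not among the 7 members found with the starts of basic transcripts. Foxc1, Foxc2, Foxj1, Foxj2 and Foxk1 were called in 5 of 6 wt lists. Leaving out both replicates 3 raised the number to 10, and leaving out wt HOXD13 replicate 1, the smallest list, raised it to 9 by adding Foxc2, Foxj2 and Foxk1. With intervals of a fold enrichment of at least 5 no member had one in all 6 lists.

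The gene-start sites mostly had lower pileups than the highest sites shown first, which were picked for their rank. The highest of those, 1.23 kb upstream of Foxo3, lies outside the 1 kb limit and is counted within 2.5 kb. At the Foxp2 start (chr6:14900487-14901368) the pileup per M read ends was 1.83, 0.998 and 1.05 with wt HOXA13 and 1.35, 4.03 and 1.41 with wt HOXD13. With 542 it was 1.64 and 1.3 for HOXA13 and 3.92 for HOXD13. The wt HOXD13 replicate 2 and 542 HOXD13 libraries stood above the others, and the wt antibodies overlapped. At the Foxp4 start (chr17:47924038-47925725) the values were 0.796, 0.658 and 0.606 with wt HOXA13 and 0.778, 1.64 and 0.813 with wt HOXD13, again with 1 high HOXD13 library. At the Foxo1 start the wt HOXA13 values of 1.23, 0.913 and 0.718 lay inside the wt HOXD13 range of 0.441, 1.5 and 0.488.

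**Figure D4:**
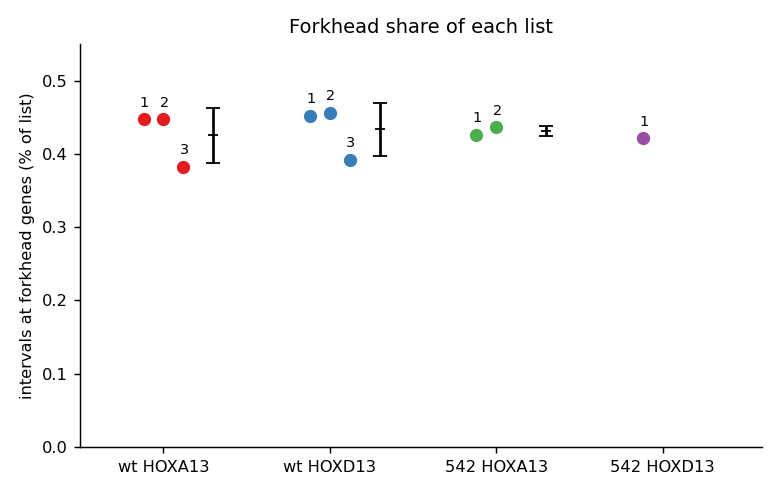
Intervals assigned to forkhead genes as a percentage of each list (y axis from 0), by group; numbers mark replicates, and bars give the mean and SD for groups with more than 1 library. Both replicates 3 of the wt groups lie lowest, at 0.382% and 0.392%, and the other 7 lists lie between 0.421% and 0.456%.

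The question of whether both HOX13 proteins used the forkhead genes alike was first asked of the lists. Forkhead intervals made up 0.447%, 0.447% and 0.382% of the wt HOXA13 lists and 0.452%, 0.456% and 0.392% of the wt HOXD13 lists. The means were 0.425% ± 0.0375 (SD, n = 3) and 0.433% ± 0.0361 (SD, n = 3). This difference lay within the replicate spread (exact permutation test of the labels, two-sided, p = 0.5, where 0.1 is the smallest p that 3 against 3 libraries allow). That holds for whole lists of unequal size. The HOXA13 to HOXD13 ratio of shares was 0.982 there. It was 0.797 among intervals of a fold enrichment of at least 5 and 0.765 in the top 10000 of each list, and these were not tested. The 542 lists gave 0.426% and 0.436% with HOXA13 and 0.421% with HOXD13. More forkhead sites were called in all 3 wt HOXA13 lists (128, 21.8% of 586) than in all 3 wt HOXD13 lists (63, 10.8%), and the shares near all protein-coding genes were 22.3% and 11.8%.

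In wt HOXA13 lists without any wt HOXD13 list were 215 of the 586 forkhead sites (36.7%), beside 35.9% near all protein-coding genes. In wt HOXD13 lists without any wt HOXA13 list were 116 (19.8%, beside 20.3%). These counts include the 295 sites called in 1 wt list only. Sites called in all 3 wt lists of 1 antibody and in none of the other were few. Called in all 3 wt HOXA13 lists and in no wt HOXD13 list were 9 of 586 forkhead sites (1.54%), beside 1.22% of sites near all protein-coding genes. The reverse held for 1 forkhead site (0.171%, beside 0.0338%). The 9 HOXA13 sites were 2 each at Foxp1, Foxn3 and Foxd3 and 1 each at Foxp2, Foxb2 and the overlapping windows of Foxd2 and Foxe3. Wt HOXD13 replicates 1 and 3 had the smallest wt lists, 23939 and 37589 intervals, while wt HOXD13 replicate 2 held 76838. The part of list size in these counts was not tested. Of the 9 HOXA13 sites, that with the highest median percentile is shown, followed by the 1 HOXD13 site.

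Foxd2 and Foxe3, chr4:114957484-114957583: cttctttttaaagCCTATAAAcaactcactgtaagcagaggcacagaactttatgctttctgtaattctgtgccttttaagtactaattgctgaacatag
Foxo3 intron, chr10:42221319-42221418: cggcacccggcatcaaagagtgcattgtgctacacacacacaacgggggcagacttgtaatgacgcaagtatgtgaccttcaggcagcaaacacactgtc

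The first, between genes 31.5 kb upstream of Foxe3 (chr4:114956975-114957945), holds the consensus, away from the summit. Its pileups per M read ends were 0.67, 0.574 and 0.314 in the wt HOXA13 libraries and 1.39 and 1.34 in the 542 HOXA13 libraries. The 542 HOXD13 library also called it, at 1.11, so it was not a site of HOXA13 alone in the line. The second, in an intron of Foxo3 (chr10:42220973-42221530), had 14, 59 and 14 read ends in the wt HOXD13 libraries. Its percentile of -log10 p within these lists ran from 5.84 to 84.0, with a median of 18.5, so it ranked low in part of them. The 542 HOXD13 library called it with 26 read ends.

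At sites called in all 6 wt lists the signal itself was compared. For each library the pileup at its own highest summit within the site was taken. At the 55 forkhead sites the main summits of the 6 wt lists were spread over 20 to 1270 bp. A difference can thus compare separate positions within a site. Pileups were put on a log2 scale, centred on the median of each library and fitted with limma over 13953 sites, of which 55 were forkhead sites. No forkhead site passed an adjusted p of 0.05 with either sign, and the smallest adjusted p by limma was 0.119. Over all sites 0.0% were called higher and 0.0645% lower with HOXA13. At an unadjusted p under 0.05 there were 3 forkhead sites higher and 8 lower with HOXA13, 11 of 55 in all. Of all sites, 18.6% passed it with either sign. The median difference, HOXA13 minus HOXD13, was -0.16 for the forkhead sites on this scale and 0.0 for all sites, and it was 0.37 and 0.53 when pileups were scaled by read ends instead, so the direction of the forkhead median flips with the scaling while it stays under that of all sites in both. On the centred scale 35 of 55 forkhead sites (63.6%) were lower with HOXA13, against 49.8% of all sites. These shares were 54.5% and 49.9% without both replicates 3, and 25.5% and 17.2% with pileups scaled by read ends.

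Without both replicates 3 the same fit called 1 forkhead site higher and 5 lower with HOXA13 (1.82% and 9.09% of 55), beside 6.65% and 5.72% of all sites. The 6 sites were singled out after their values were seen. The lower ones were the Foxr1 site in C030014I23Rik (log2 difference -1.84 without both replicates 3 and -1.53 ± 0.37, SE, with all 6 libraries), the starts of Foxp2 (-1.48 and -1.19 ± 0.31) and Foxp4 (-1.33 and -1.09 ± 0.29), the other Foxr1 site (-1.14 and -0.92 ± 0.39) and a Foxj2 site in Necap1 (-0.94 and -0.80 ± 0.27). The higher one was the Foxp1 site 37.8 kb into the gene (0.97 and 0.63 ± 0.29). At the Foxr1 site in C030014I23Rik the pileup per M read ends was 0.887, 0.489 and 0.92 with wt HOXA13 and 0.908, 2.34 and 1.52 with wt HOXD13, and it was 5.15 with 542 HOXD13. Replicates 1 and 2 alone are 2 libraries against 2, and the part of list depth in these calls was not tested. Without wt HOXA13 replicate 3 alone, 1 forkhead site, that of Foxr1 in C030014I23Rik, was called (log2 difference -1.94, lower with HOXA13).

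**Figure D5:**
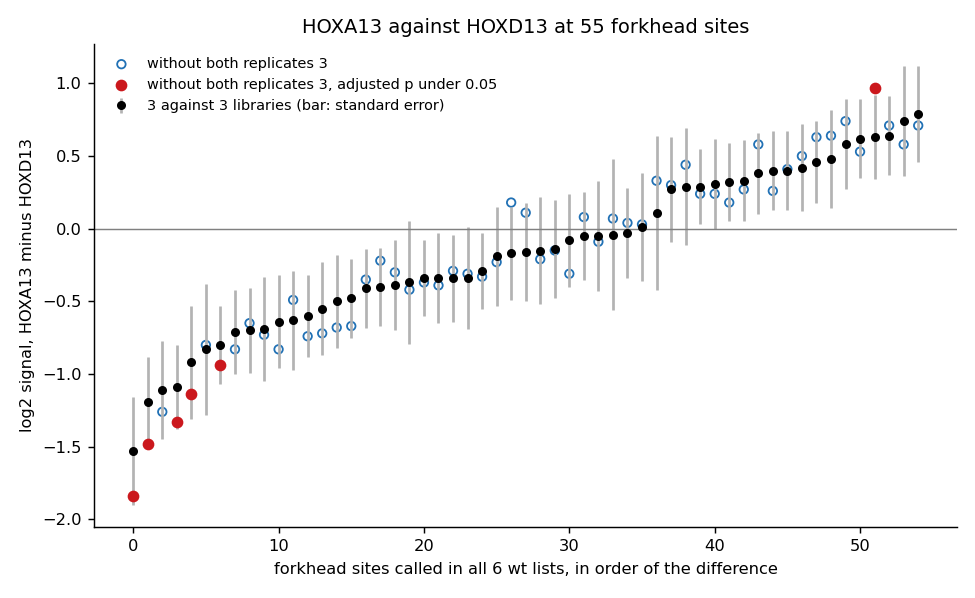
Log2 signal difference, HOXA13 minus HOXD13, at the 55 forkhead sites called in all 6 wt lists, in rising order (x axis). Black points are limma estimates with standard errors from 3 against 3 libraries, open and red points those without both replicates 3; no black point passed an adjusted p of 0.05, and 6 of the other estimates did (red), 5 of them below 0.

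The 542 line carries the insertion on chromosome 2, and the wt and 542 HOXA13 libraries could be compared at members elsewhere. Over 27085 sites called in all 5 HOXA13 lists, 121 of them at forkhead genes, limma called 0.0% of all sites higher and 0.0% lower in wt, and no forkhead site (smallest adjusted p 0.091). At an unadjusted p under 0.05 there were 13 forkhead sites higher and 7 lower in wt, 20 of 121 in all. Of all sites, 18.7% passed it with either sign. The median difference, wt minus 542, was -0.02 for the forkhead sites and 0.03 for all. It was -0.57 and -0.52 when pileups were scaled by read ends. The forkhead median lay close to that of all sites under both scalings.

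Without wt HOXA13 replicate 3 the fit called 13 forkhead sites higher and 9 lower in wt (10.7% and 7.44% of 121), close to the 10.5% and 8.69% of all sites, so that the members' share is that of the background. The lowest p among forkhead sites with all 5 libraries belonged to a Foxp1 intron site 376 kb past the gene start (chr6:99146100-99147301). Its pileup per M read ends was 2.28, 1.38 and 1.84 in the wt HOXA13 libraries and 0.751 and 0.827 in the 542 HOXA13 libraries, so the groups did not overlap. The log2 difference was 1.74 ± 0.31 (SE, limma, adjusted p = 0.091) and 1.53 without wt HOXA13 replicate 3 (limma, adjusted p = 0.00218). At a second Foxp1 intron site, 249 kb past the start, the difference was 1.17 ± 0.27 (SE, limma, adjusted p = 0.0963) and 1.14 without that library (limma, adjusted p = 0.00608). A Foxp1 intron site 4.69 kb past the start differed in the other direction, by -1.19 ± 0.30 (SE, limma, adjusted p = 0.105) and by -1.32 without that library (limma, adjusted p = 0.00456). These 3 Foxp1 sites were singled out after their values were seen. Genotype, mapping genome and pool cannot be told apart in this comparison. The 542 HOXD13 library has no replicate, carries another stage in its label and was not compared.

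The HOX13 consensus was looked for in the 50 bp around the summits. It was present at 9 of the 55 sites called in all 6 wt lists (16.4%, exact binomial 95% interval 7.77% to 28.8%) and in 1.82% of windows of the same length 1000 bp to either side. Among the 11041 such sites near protein-coding genes the share was 13.4%, with 2.2% beside them, so the forkhead interval includes the genome's value. The 9 sites lay at Foxn3 (2), Foxl1 (2), Foxc1, Foxc2, Foxa3, Foxj1 and Foxj3. The summits here come from the list in which the site ranked highest, and single lists gave 10.9% to 21.8%. Of the 9, the 3 with the highest median percentile are printed, as examples of a match at a forkhead summit chosen after their values were seen.

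Foxn3 intron 212 kb, chr12:99351885-99351984: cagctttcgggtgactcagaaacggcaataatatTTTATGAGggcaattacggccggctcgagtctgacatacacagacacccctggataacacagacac
Foxl1 downstream, chr8:121180512-121180611: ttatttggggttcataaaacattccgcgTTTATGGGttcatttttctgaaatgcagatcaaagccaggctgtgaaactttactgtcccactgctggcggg
Foxn3 intron 321 kb, chr12:99242496-99242595: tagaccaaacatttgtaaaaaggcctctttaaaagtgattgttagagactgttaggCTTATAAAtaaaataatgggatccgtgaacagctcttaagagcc

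Both Foxn3 windows lie in introns of the gene, 212 kb and 321 kb past its start, and the Foxl1 site lies 52.6 kb past the Foxl1 start. At the Foxn3 site 321 kb past the start the pileup per M read ends was 3.29, 2.68 and 1.57 with wt HOXA13 and 1.17, 1.09 and 0.705 with wt HOXD13, so every wt HOXA13 value was above every wt HOXD13 value on this scale, which is not centred. The 542 values were 7.62 and 6.62 with HOXA13 and 3.28 with HOXD13. In RefSeq promoters of 300 bases on GRCm38.p6, which matched 28 of the 44 members by symbol, the consensus was found in 2 of 33 forkhead promoters (6.06%), those of Foxb2 and Foxp3, and in 10.3% of 32851 promoters in all.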

How the data were processed

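CUT&RUN peak lists of HOXA13 and HOXD13, 1 per library, were analysed as deposited. Groups were taken from the sample titles. The titles give E11.5 for the 542 HOXD13 library, while the growth protocol gives a single collection day for all. Some items are not reported here. Members and gene lists were chosen with earlier results of these data known.

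Following the study's methods, reads were trimmed with cutadapt, mapped with Bowtie 2 and filtered with SAMtools at a mapping quality of 30. Duplicates were handled with Picard. The sources differ on whether they were taken out, since one line states removal and a listed command keeps them. MACS2 then called peaks per library, with no control, on both mates as read ends extended to 200 bp. Duplicates, if kept, raise pileups. For each summit the authors deposited a fold enrichment, the ratio between pileup and the background nearby. The -log10 p-value and -log10 q-value deposited beside it test this pileup against a Poisson distribution. The score column of the deposited lists is a whole number derived from -log10 q.

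Rows with the same bounds were joined to an interval. Pileups were solved from fold enrichment and -log10 p, and 100% came out whole within 0.05 read ends in each list. The solution was tested on simulated data. The read ends of a library were not taken from a read count. They were inferred from the most frequent background value of its list, the genome size given to MACS2 and the extension of 200 bp. Intervals overlapping by at least 1 bp in any list were joined to a site. Rows of the 542 lists past the insertion on chromosome 2 were dropped. Annotation was GENCODE vM21 basic on GRCm38, the assembly of mm10, with 1-based coordinates.

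Signal was fitted with limma, two-sided, with Benjamini-Hochberg adjustment over all sites fitted (threshold 0.05), after tests on simulated data with known changes. A member was named for the 8 highest counts of sites called in all 6 wt lists, the 8 highest densities among members with at least 3, no interval in any list, a called gene start, or a site past the threshold. Sites were named for the 6 highest in all 9 lists, the 3 highest of 1 antibody, and the 3 largest changes past the threshold in each direction. Alternatives were stricter intervals, other windows, summit joining, scalings, motif settings, a replicate block and libraries left out. Leaving out both replicates 3 together was chosen after seeing the data. Analyses used Python 3.11.15, pandas 2.3.3, numpy 2.4.6, scipy 1.17.1, pysam 0.24.0, samtools 1.23.1, matplotlib 3.10.9, R 4.3.3 and limma 3.58.1.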

Additional observations from a re-analysis of the deposited data

How the results depend on the processing

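The number of forkhead sites called in all 6 wt lists, 55, became 7 when fold enrichment had to reach 5, 25 with a -log10 q of at least 5, 12 in the top 10000 intervals of each list, 20 in gene bodies only, 34 with 10 kb and 91 with 100 kb on either side, and 17 with main summits joined within 100 bp. The number of genes with such a site, 28, became 8, 19, 11, 4, 16, 36 and 15 in the same order. For members with a called gene start, 6, the count was 0 at a fold enrichment of 5 or more, 0 in the top 10000, 4 with a -log10 q of at least 5, 8 within 2.5 kb and 7 with the start of any transcript of the basic GENCODE set. Leaving out 1 wt library gave 55 to 81 sites, 28 to 35 genes and 6 to 9 gene starts, each highest without wt HOXD13 replicate 1. Leaving out both replicates 3 gave 81, 30 and 10.

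The HOXA13 to HOXD13 ratio of forkhead shares was 0.982. It was 0.797 at a fold enrichment of 5 or more and 0.765 in the top 10000, both further from 0.982 than the replicate SD on a log2 scale. With 1 library left out it was 0.934 to 1.03. The consensus share of 16.4% became 27.3% in 100 bp windows, 15.5% with the summit of each wt list in turn and 5.45% with the core CAATAAA, a narrower set of letters.

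Deviations from the antibody means were compared between wt HOXA13 and HOXD13 libraries of the same number, with correlations of 0.046, 0.38 and 0.685 for replicates 1, 2 and 3, and HOXA13 replicate 1 went best with HOXD13 replicate 2 (0.631), so the numbers were not taken to pair the libraries. A replicate block gave 7 forkhead calls in place of 0 between antibodies, all lower with HOXA13 (972 higher and 1009 lower over all sites, in place of 0 and 9), and 28 between wt and 542 (16 higher and 12 lower in wt, with 3902 and 3150 over all sites). With the replicate block the ratio of shares was 0.982. Forkhead calls between antibodies were 0 to 1 with 1 library left out, the highest without wt HOXA13 replicate 3 (159 higher and 145 lower over all sites), and 6 without both replicates 3 (928 and 798). Calls between wt and 542 were 0 to 22, again highest without wt HOXA13 replicate 3 (2842 and 2353 over all sites). Scaling by read ends gave no forkhead call in either fit, with 0 and 1 over all sites between antibodies and 4 and 398 between wt and 542. The other settings (fold enrichment as the measure or at least 5, joined summits, a variance trend) gave no forkhead call either. The causes were not tested.

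A shared site must be in every wt list, and the smallest, wt HOXD13 replicate 1, held 23939 intervals from 38.5 M read ends, while wt HOXD13 replicate 3 held 37589 from 36.9 M. The part of depth was not tested. No control library was used, so signal from open chromatin was not measured apart from binding.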
